A study of Mus musculus with 6 samples.

Results

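The 10 genes described here encode ligands of the TGF-beta and activin branch (Tgfb1, Tgfb2, Tgfb3, Mstn, Inhba), the extracellular antagonist follistatin (Fst) and nuclear repressors of the pathway (Tgif1, Tgif2, Ski, Skil). They were chosen by symbol from the 43074 gene symbols of a count table of C2C12 cells, with earlier results of the same libraries in view. Tgif2 was selected on its difference between 4-phenylbutyric acid (4-PBA) and DMSO, which had been among the largest rises with 4-PBA. Values of Tgif2 that rest on that contrast are therefore given as a description, without a p-value. Which measured values led to the choice of the other members is not stated, so counts of changed members are descriptions as well.

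C2C12 is a mouse myoblast line that leaves the cell cycle and fuses into myotubes when serum is changed. The 6 RNA libraries came from wild-type C2C12 cells in 3 groups of 2: untreated cells at day 0, cells after 4 days in differentiation medium with horse serum and DMSO (the vehicle), and cells after 4 days in that medium with 1 mM 4-PBA, a short aromatic fatty acid used both to ease protein folding and to inhibit histone deacetylases. Day 0 had no vehicle arm, and day 0 and day 4 also differ in medium. All groups are the same line, and the labels do not say whether the 2 libraries of a group came from separate cultures, so p-values measure the spread between these libraries, which may be technical. Total counts lay between 47908926 and 74697397 per library, and the labels give a single batch. The summed level of 8 myoblast and myotube markers was 1105 and 1111 CPM (counts scaled to library size with TMM factors) at day 0 and 6516 to 6986 CPM at day 4. All 8 were detected in every library. Myf5 was lower at day 4, with 50.4 and 50.0 CPM at day 0 and 22.6 to 24.5 CPM at day 4. The other markers were higher in every day 4 library than in either day 0 library. Markers of other cell types were low, with summed levels of at most 0.397 CPM for 3 adipocyte genes, 6.11 CPM for 4 macrophage genes and 0.883 CPM for 3 endothelial genes; of 4 fibroblast markers Ly6a alone was high, at 159 to 323 CPM.

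TGF-beta, activin and myostatin are secreted as precursors and bind pairs of serine/threonine kinase receptors, which phosphorylate Smad2 and Smad3. These enter the nucleus with Smad4 and change transcription. Follistatin traps activins and myostatin outside the cell, whereas Ski, SnoN (the product of Skil) and the TGIF proteins recruit corepressors to Smad complexes. In muscle, myostatin is known as a restraint on growth and TGF-beta as an inhibitor of myoblast differentiation.

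Upstream sequences were available for 7 of the 10 members in the RefSeq promoter table (assembly GRCm38.p6), with 11 windows in all because Tgif1 has several starts. Those of 3 members are shown because their levels take the 3 forms met in the results: a rise at day 4 (Tgfb2), no counts at all (Mstn) and a lower level with DMSO than in the other groups (Tgif2). Each is the 250 bases before the start, 5′ to 3′ on the gene's strand, with E-boxes in capitals. An E-box is CANNTG, the general motif of bHLH factors, a family that includes MyoD, and it reads the same on both strands. The marked sites were not assigned to any factor, and none of the 3 windows held the form CAGCTG. The Tgfb2 window is chr1:186705990-186706239 on the minus strand, the Mstn window is chr1:53061390-53061639 on the plus strand and the Tgif2 window is chr2:156839757-156840006 on the plus strand.
Tgfb2: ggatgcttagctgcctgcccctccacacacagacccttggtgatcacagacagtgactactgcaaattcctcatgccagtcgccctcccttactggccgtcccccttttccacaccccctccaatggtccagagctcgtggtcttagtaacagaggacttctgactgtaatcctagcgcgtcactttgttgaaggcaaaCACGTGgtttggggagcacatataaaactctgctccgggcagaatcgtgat
Mstn: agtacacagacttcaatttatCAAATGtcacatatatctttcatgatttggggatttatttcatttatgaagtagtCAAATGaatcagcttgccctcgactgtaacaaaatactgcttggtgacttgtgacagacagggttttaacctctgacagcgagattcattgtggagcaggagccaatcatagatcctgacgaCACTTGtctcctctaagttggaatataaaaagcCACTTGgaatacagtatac
Tgif2: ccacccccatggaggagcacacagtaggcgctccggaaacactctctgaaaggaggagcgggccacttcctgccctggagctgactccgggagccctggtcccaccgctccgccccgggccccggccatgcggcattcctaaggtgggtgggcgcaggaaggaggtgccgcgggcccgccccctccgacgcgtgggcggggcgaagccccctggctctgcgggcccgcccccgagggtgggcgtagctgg

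The Mstn window held 4 E-boxes, 2 copies of the Smad motif CAGAC and 2 of the TGIF motif CTGTCA, counted on both strands. A CAGAC copy and a CTGTCA copy there share bases. The Tgfb2 window held 1 E-box and 2 copies of CAGAC, and the Tgif2 window, with 74.0% G and C, held none of the 3 motifs. Over all 11 windows of these genes, 5 had an E-box, 5 had CAGAC and 1 had CTGTCA. Of 32851 promoter windows of the same length in the table, 66.2% had an E-box, 42.2% had CAGAC and 15.9% had CTGTCA. The matches describe letters in the window and were not tested for binding.

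Of the 10 genes, 8 rose from day 0 to day 4 with either treatment, Tgif2 was lower with DMSO, and Mstn had no counts and was not tested. The steps ran from a log2 fold change of 0.27 for Tgfb1 to 2.91 for Fst with DMSO. Between 4-PBA and DMSO, Fst was called higher and Skil lower. Tgif2, selected on that contrast, is left out of the counts of calls that follow. The other 8 tested members were all called higher with DMSO against day 0 at an adjusted p under 0.05, among 66.3% of 17433 tested genes (33.8% higher and 32.6% lower). With 4-PBA against day 0, all 8 were again called higher, among 65.6% of genes (33.2% higher and 32.4% lower). Both comparisons share the day 0 libraries. Between 4-PBA and DMSO, 2 of the 8 were called (Fst higher and Skil lower), among 4.90% of genes (2.13% higher and 2.78% lower). The median log2 fold change of the 9 tested members, Tgif2 included, was 0.90 with DMSO against day 0, 0.81 with 4-PBA against day 0 and 0.03 between treatments, against 0.0226, 0.0176 and 0.00205 over all tested genes. Nothing is read from these counts beyond the background, because the genes were chosen with results of these libraries known. Scaled by library size only, Fst was called between treatments and Skil was not.

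Of the 3 TGF-beta ligands, which are the prototypes of the family, Tgfb3 and Tgfb2 rose most during differentiation. Tgfb3 was 66.3 and 64.8 CPM at day 0, 178 and 179 CPM in DMSO and 180.5 and 180.2 CPM in 4-PBA. Both day 4 groups lay far above day 0 and close to each other. The rise was a log2 fold change of 1.45 with DMSO (SE 0.035, adjusted p = 2.36e-28 by edgeR) and 1.46 with 4-PBA (adjusted p = 2.16e-28), and the difference between the treatments was 0.01 (SE 0.0332, adjusted p = 0.920). In bulk RNA, fewer cells of a type and less RNA per cell cannot be told apart, which holds for every level given here.

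Tgfb2 was 16.7 and 17.8 CPM at day 0, 44.5 and 44.7 CPM in DMSO and 50.6 and 47.5 CPM in 4-PBA. It rose by a log2 fold change of 1.37 with DMSO (SE 0.058, adjusted p = 4.31e-21) and 1.50 with 4-PBA (adjusted p = 2.77e-22). Both 4-PBA libraries lay above both DMSO libraries, but the difference of 0.14 (SE 0.0529) did not pass the test (adjusted p = 0.142). Tgfb1, the ligand found in most tissues, was 86.7 and 87.8 CPM at day 0, 106 and 104 CPM in DMSO and 110 and 113 CPM in 4-PBA. Its rise was a log2 fold change of 0.27 with DMSO (SE 0.0374, adjusted p = 9.51e-08) and 0.35 with 4-PBA (adjusted p = 2.81e-10). With 4-PBA it differed from DMSO by 0.08 (SE 0.0369, adjusted p = 0.224).

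Between ligands, levels can be compared only per transcript length (CPM per kilobase of the longest coding transcript in GENCODE M21). On that scale Tgfb1 made up 63.5% and 64.1% of the summed level of the 3 ligands at day 0 and 43.6% to 45.4% at day 4. Tgfb3 went from 31.3% and 30.4% to between 46.5% and 48.4%, and it was above Tgfb1 in every day 4 library. Tgfb2 held 5.20% and 5.53% at day 0 and 7.89% to 8.69% at day 4. These shares depend on the lengths used. Over all exons of each gene, Tgfb3 (19.4 CPM per kb) was above Tgfb1 (17.3 CPM per kb) at day 0 already, so the change of order rests on the longest coding transcripts.

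Myostatin, the muscle-derived ligand that restrains muscle growth, had 0 counts in all 6 libraries. A count of 0 allows up to 3 counts, or 0.0402 to 0.0626 CPM, in a library and 0.00788 CPM over all libraries, if reads of Mstn were counted at all. Mstn was among the counted symbols, so the annotation behind the counts listed the gene. That annotation is not given in the sources used here. Which Mstn transcripts it held and how reads were assigned to them cannot be told from a row of 0. No level or change of Mstn was therefore measured. The closest relative of Mstn, Gdf11, named for that reason and not by the naming rule, was measured at 47.3 and 48.4 CPM at day 0, 43.2 and 45.6 CPM in DMSO and 50.0 and 48.8 CPM in 4-PBA. It did not pass the test in any comparison (log2 fold change -0.11, adjusted p = 0.0523, with DMSO against day 0; 0.15, adjusted p = 0.0623, with 4-PBA against DMSO), although 3 and 2 of 14 alternatives called these differences. The neighbours of Mstn in RefSeq gene order, 1700019D03Rik and 1700019A02Rik, had 0 to 43 and 9 to 24 counts a library.

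Inhba, which encodes the subunit that dimerises into activin A, rose from 70.0 and 70.5 CPM at day 0 to 139 and 123 CPM in DMSO and 127 and 129 CPM in 4-PBA. The treatments overlapped, and the 4-PBA libraries lay within the range of the DMSO libraries. The log2 fold change was 0.90 with DMSO (SE 0.0452, adjusted p = 6.61e-15), 0.87 with 4-PBA (adjusted p = 1.55e-14) and -0.03 between the treatments (SE 0.0438, adjusted p = 0.798).

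Follistatin, which binds activins and myostatin, had the largest rise of the 10 genes. Fst was 8.44 and 6.91 CPM at day 0, 58.1 and 55.7 CPM in DMSO and 67.9 and 70.4 CPM in 4-PBA. The 3 groups did not overlap. Fst was 7.51-fold higher in DMSO than at day 0 (a log2 fold change of 2.91, SE 0.0668, adjusted p = 1.05e-27) and 9.12-fold higher with 4-PBA (a log2 fold change of 3.19, SE 0.0665, adjusted p = 7.74e-29). It was 21.5% higher with 4-PBA than in the DMSO libraries, a difference of 0.28 on the log2 scale (SE 0.0529, adjusted p = 0.00085). That call was lost without 4-PBA replicate 2 (adjusted p = 0.0530).

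The ratio of antagonist to ligand was higher at day 4. Per length, Fst was 0.272 and 0.221 of the level of Inhba at day 0, 0.941 and 1.02 in DMSO and 1.21 and 1.23 in 4-PBA. All 4 day 4 libraries lay above both day 0 libraries, and both 4-PBA libraries lay above both DMSO libraries. No test was made of this ratio, whose size depends on the transcript lengths used: with the shortest coding transcripts Fst (63.8 CPM per kb in DMSO and 77.5 in 4-PBA) stayed below Inhba (85.8 and 83.8).

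**Figure D1:**
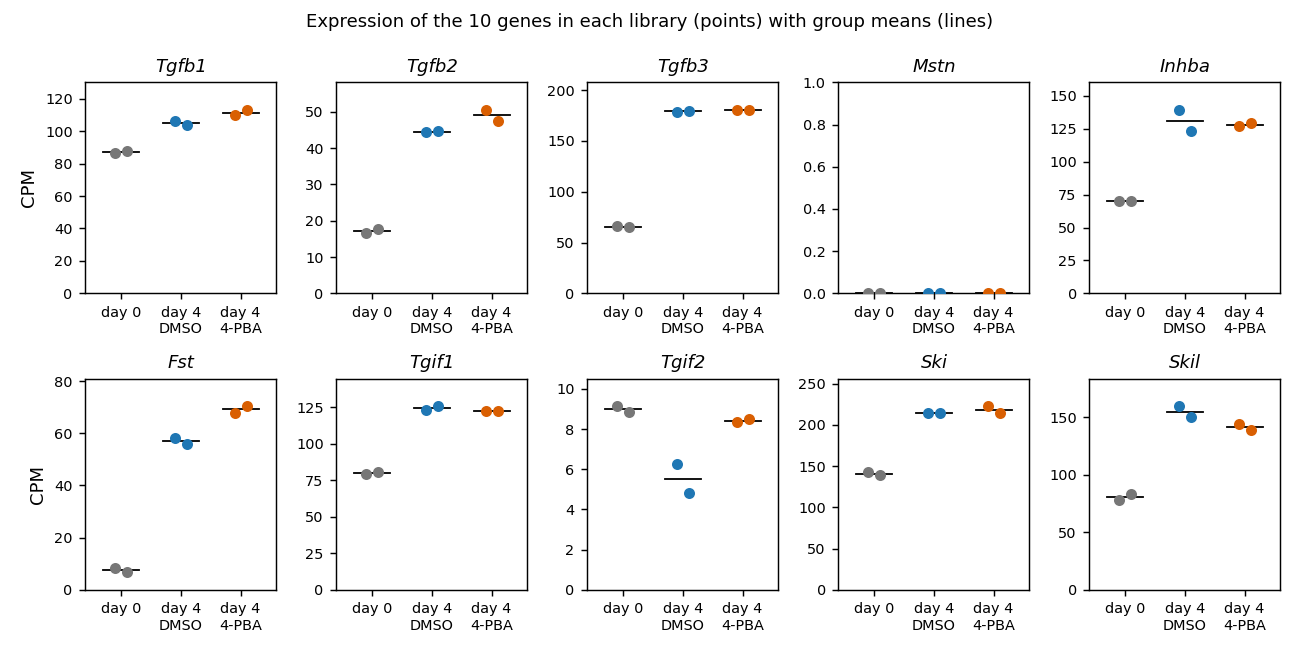
Expression in CPM (linear axes from 0, a scale for each gene) of the 10 genes in each library (points) with the group means (lines), by group. Fst and Tgfb3 show the clearest steps from day 0 to day 4, Mstn is at 0 throughout, and Tgif2 is lowest in the DMSO libraries.

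Among the nuclear repressors, Tgif1, Ski and Skil rose at day 4 with either treatment, whereas Tgif2 was lower with DMSO than at day 0 or with 4-PBA. Tgif1, a homeodomain repressor that recruits corepressors to Smad2, was 79.4 and 80.4 CPM at day 0, 123 and 126 CPM in DMSO and 122.4 and 122.7 CPM in 4-PBA. Its log2 fold change from day 0 was 0.64 with DMSO (SE 0.0364, adjusted p = 1.95e-17) and 0.62 with 4-PBA (adjusted p = 6.27e-17), with -0.02 between the treatments (SE 0.0355, adjusted p = 0.836).

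Ski, the founding member of a family of Smad corepressors, was 142 and 139 CPM at day 0, 214.1 and 214.7 CPM in DMSO and 223 and 214 CPM in 4-PBA. The treatments overlapped. The log2 fold change was 0.61 with DMSO (SE 0.0329, adjusted p = 4.27e-18), 0.64 with 4-PBA (adjusted p = 1.47e-18) and 0.03 between the treatments (SE 0.0324, adjusted p = 0.785). Skil, which encodes the related corepressor SnoN, was 78.5 and 82.9 CPM at day 0, 160 and 150 CPM in DMSO and 144 and 139 CPM in 4-PBA. Its rise was 0.94 with DMSO (SE 0.0384, adjusted p = 3.11e-21) and 0.81 with 4-PBA (adjusted p = 2.26e-19). Skil was lower with 4-PBA than with DMSO, with a log2 fold change of -0.13 (SE 0.0373, adjusted p = 0.0407). This call was held in only 5 of 14 alternatives, with adjusted p-values between 0.00133 and 0.410, and the difference was -0.08 without DMSO replicate 1.

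Tgif2, a paralog of Tgif1, was 9.14 and 8.83 CPM at day 0, 6.24 and 4.83 CPM in DMSO and 8.36 and 8.49 CPM in 4-PBA. Both DMSO libraries lay below all 4 others. The difference was -0.70 on the log2 scale with DMSO against day 0 (SE 0.117), -0.09 with 4-PBA against day 0 (SE 0.114) and 0.61 with 4-PBA against DMSO (SE 0.117), a 1.53-fold higher level. DMSO replicate 2 was the lowest library, and without it the difference between the treatments was 0.43, whereas without DMSO replicate 1 it was 0.80. The same DMSO replicate 2 had the lowest summed level of 5 proliferation markers, 424 CPM, against 490 CPM in DMSO replicate 1 and 525 and 533 CPM with 4-PBA. The part of proliferation in the level of Tgif2 was not tested. In GENCODE M21, Tgif2 overlaps 5430405H02Rik and Gm37790 on the opposite strand. The library kit was directional, but the strand setting of the counting is not given in the sources used here. 5430405H02Rik was 5.66 and 5.53 CPM at day 0, 6.13 and 6.05 CPM in DMSO and 6.68 and 8.34 CPM in 4-PBA. With 4-PBA it was 0.30 higher than with DMSO on the log2 scale (adjusted p = 0.166 by edgeR), the direction of Tgif2. With DMSO it was 0.12 higher than at day 0 (adjusted p = 0.392), where Tgif2 was lower. Against day 0, 5430405H02Rik was 0.43 higher with 4-PBA (adjusted p = 0.00284 by edgeR), where Tgif2 differed by -0.09. The part of its reads in the level of Tgif2 was not tested. Gm37790 had 0 to 14 counts. Without the strand setting, reads of Tgif2 and of these partners cannot be told apart. The opposite-strand partners of Tgfb2 (Gm29491), Tgfb3 (Gm37804 and Gm48008) and Fst (Gm47040) had at most 22, 13 and 3 counts in a library.

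**Figure D2:**
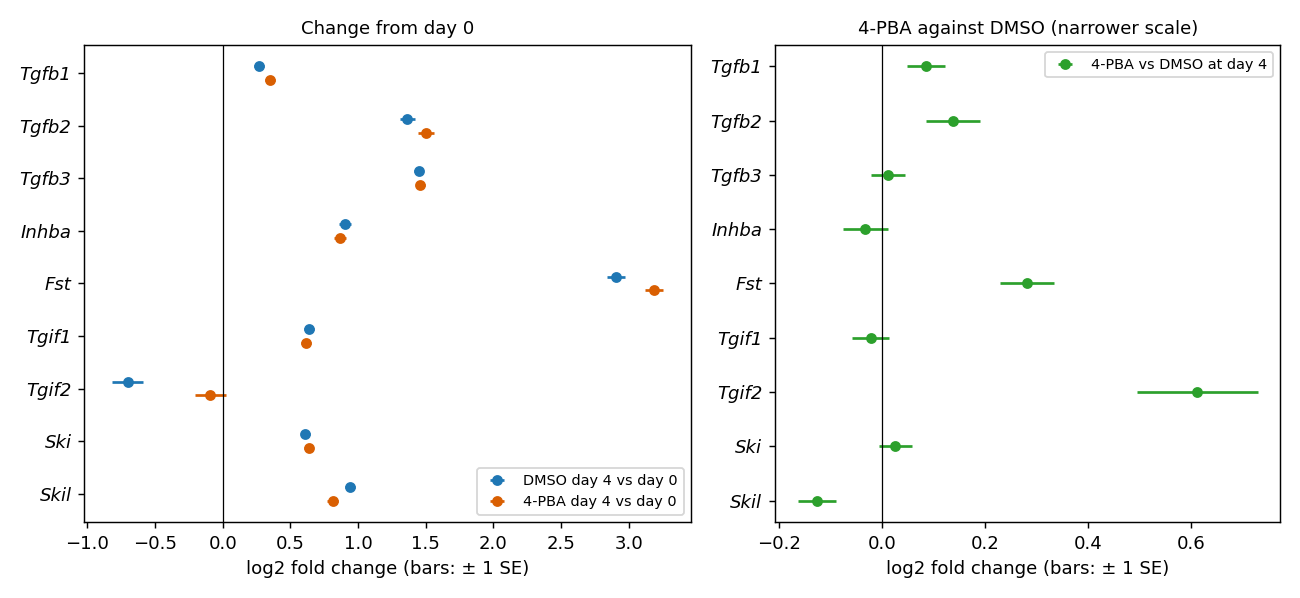
Log2 fold change with ± 1 SE (bars) of the 9 genes that were tested, against day 0 on the left and between treatments on the right, which has a narrower scale. Fst stands furthest right of the members at day 4, and Tgif2 is the only one on the left of 0 against day 0 with DMSO.

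Ranked per length, the levels of the 9 tested genes at day 0 ran Tgif1 (46.6 CPM per kb), Tgfb1 (40.1), Ski (25.4), Tgfb3 (19.4), Skil (12.01), Inhba (11.0), Tgfb2 (3.37), Tgif2 (3.10) and Fst (2.71). Tgfb2 and Tgif2 lay apart by more than their spread (SD 0.157 and 0.0741, n = 2), but Tgif2 and Fst, with an SD of 0.381 for Fst, lay within the sum of their SDs. At day 4 with DMSO the order was Tgif1 (72.6), Tgfb3 (52.9), Tgfb1 (48.3), Ski (38.8), Skil (23.1), Inhba (20.5), Fst (20.1), Tgfb2 (8.71) and Tgif2 (1.91). Skil (SD 1.02) and Inhba (SD 1.80), and Inhba and Fst (SD 0.596), did not differ beyond their spread. With 4-PBA the order was Tgif1 (71.5), Tgfb3 (53.3), Tgfb1 (51.2), Ski (39.5), Fst (24.4), Skil (21.1), Inhba (20.1), Tgfb2 (9.59) and Tgif2 (2.90). The places of Tgif1 and Tgfb1 rest on the transcript chosen, since over all exons of the gene Tgif1 was 14.2 and Tgfb1 17.3 CPM per kb at day 0, below Ski at 25.2 and Tgfb3 at 19.4. With the shortest coding transcript, Tgif1 (130.3) and Skil (113) led at day 0.

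**Figure D3:**
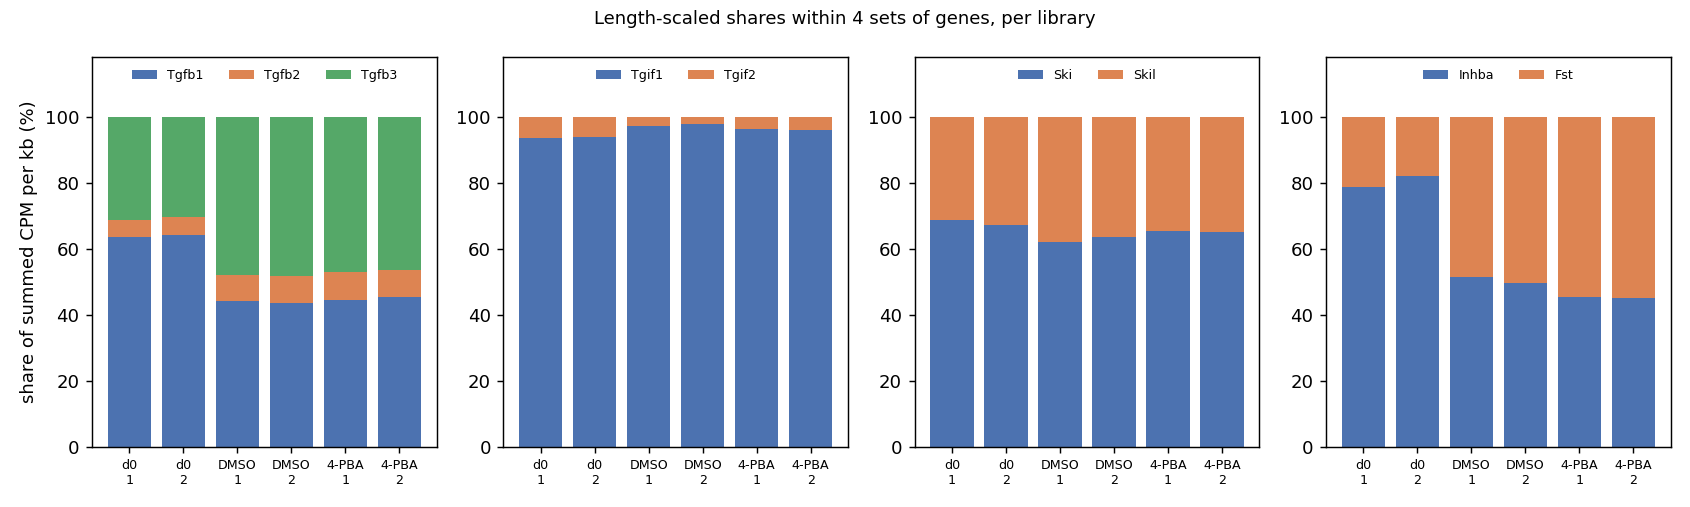
Share in percent of the summed CPM per kb in each library of related members (from left to right the 3 TGF-beta ligands, the 2 TGIF genes, the 2 Ski genes, and Inhba with Fst), with d0 for day 0. The share of Tgfb3 among the ligands and of Fst beside Inhba is larger in every day 4 library than in either day 0 library.

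In the paralog pairs, Tgif2 made up 6.37% and 6.10% of the 2 TGIF genes at day 0, 2.91% and 2.22% in DMSO and 3.88% and 3.93% in 4-PBA. Skil was 31.2% and 33.0% of the 2 Ski genes at day 0, 38.0% and 36.5% in DMSO and 34.8% and 34.9% in 4-PBA. In both pairs the 4-PBA libraries lay between the day 0 and the DMSO libraries. Tgif2 was selected on its difference between 4-PBA and DMSO, so the order of these groups in the TGIF pair is not a result. Shares within a pair say how the members moved against each other and carry no test. Their size depends on the transcript lengths used. At day 0, the shortest coding transcripts put Skil (112.7 CPM per kb) above Ski (26.45). Over all exons, Skil (8.325) was below Ski (25.25), and Tgif2 was 2.344 against 14.2 for Tgif1.

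Of 78 other genes of the pathway, 68 were tested and 53 were called with DMSO against day 0 (40 higher and 13 lower), 53 with 4-PBA against day 0 (41 higher and 12 lower) and 10 between treatments (6 higher and 4 lower). Over all tested genes, 66.3% were called with DMSO against day 0 (33.8% higher and 32.6% lower). The shares were 65.6% with 4-PBA against day 0 and 4.90% between treatments. The counts of each list below stand beside these shares, and nothing is read from them beyond that background. Scaled by library size only, 14 were called between treatments (10 higher and 4 lower), and without DMSO replicate 2 the split turned, with 4 higher and 11 lower. The 10 genes not tested had too few counts to pass the filter. Of the 4 tested genes listed as other ligands of the TGF-beta family, 2 rose and 1 fell with DMSO. Here and in the next paragraphs, sizes are log2 fold changes, with DMSO against day 0 unless 4-PBA is named. Gdf15, a stress-induced ligand, fell by 1.43 on the log2 scale (adjusted p = 3.12e-20), and Inha, the alpha subunit of inhibin, rose by 0.67 (adjusted p = 0.000302). Inhbb, the subunit of activin B, rose by 0.25 (adjusted p = 4.15e-05) and was higher again with 4-PBA, at 61.6 and 64.1 CPM against 52.3 and 49.8 CPM in DMSO (a difference of 0.30 on the log2 scale, SE 0.0478, adjusted p = 8.69e-05).

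Among the 8 tested receptors, 3 rose and 1 fell with DMSO, and none was called between treatments. Tgfbr2, the receptor that binds TGF-beta first, rose from 109 and 114 CPM to 349 and 350 CPM with DMSO and to 363 and 360 CPM with 4-PBA, a log2 fold change of 1.65 with DMSO (SE 0.0322, adjusted p = 4.76e-31). Acvr2a, a receptor of activins and myostatin, rose by 0.72 on the log2 scale (adjusted p = 9.18e-12), although Orc4 overlaps it on the opposite strand. Tgfbr3, a coreceptor, rose by 0.24 (adjusted p = 0.0185) and Acvr1b, a type I activin receptor, fell by 0.19 (adjusted p = 0.0195); both calls were lost in 3 of 14 alternatives.

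Of 14 tested Smads and signal regulators, 6 rose and 4 fell with DMSO. Pmepa1, a Smad target that limits Smad activation, rose from 213 and 202 CPM to 725 and 727 CPM (a log2 fold change of 1.81, adjusted p = 9.55e-33), Smad3 rose by 0.72 (adjusted p = 9.18e-19) and Smurf1, a ubiquitin ligase for Smads, rose by 0.51 (adjusted p = 2.4e-16). Nedd4l, another ubiquitin ligase, fell by 0.59 (adjusted p = 2.63e-13). Smad2 was the only one called between treatments, 0.14 higher with 4-PBA (adjusted p = 0.0408), in 6 of 14 alternatives.

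Of 15 tested genes of ligand activation and trapping, 11 rose and 1 fell with DMSO. Decorin (Dcn), a proteoglycan that binds TGF-beta, rose from 8.25 and 8.05 CPM to 269 and 294 CPM in DMSO and 303 and 277 CPM in 4-PBA, a log2 fold change of 5.11 with DMSO (adjusted p = 4.3e-21). Thbs1, an activator of latent TGF-beta, rose by 1.24 on the log2 scale (adjusted p = 1.1e-28) and Bmp1, a protease that also cleaves myostatin's propeptide, rose by 0.89 (adjusted p = 1.92e-24), while Ltbp1, which holds latent TGF-beta in the matrix, fell by 1.42 (adjusted p = 1.77e-27). Between treatments, Ltbp4 was 0.16 higher with 4-PBA (adjusted p = 0.00972), the integrin gene Itgb8 was 0.26 higher (adjusted p = 0.0400) and the integrin gene Itgb6 fell by 0.29 (adjusted p = 0.0144). The calls of Itgb8 and Itgb6 were held in 7 and 11 of 14 alternatives. Ltbp4 was called in 11, and its value was 0.095 without DMSO replicate 2.

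The 8 tested corepressor partners of Ski and TGIF proteins were split, with 3 higher and 4 lower with DMSO. The deacetylase Hdac1 fell by 0.65 (adjusted p = 3.34e-16), Ctbp2 fell by 0.57 (adjusted p = 1.4e-12) and Sin3a fell by 0.52 (adjusted p = 9.09e-13) on the log2 scale. Ctbp2 overlaps Fgfr2 on the same strand in GENCODE M21, so its counts are less certain. Ncor1 was the only one called between treatments, lower with 4-PBA at 218 and 212 CPM than with DMSO at 231 and 233 CPM (log2 fold change -0.11, adjusted p = 0.0305). This call was held in 9 of 14 alternatives.

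Of 19 tested TGF-beta target genes, 15 rose and 2 fell with DMSO. Col1a1, a collagen gene, rose by 2.34 on the log2 scale (adjusted p = 5.81e-27), Bhlhe40 by 1.83 (adjusted p = 1.93e-32), the smooth muscle actin gene Acta2 by 1.40 (adjusted p = 5.28e-29) and fibronectin (Fn1) by 1.10 (adjusted p = 3.69e-28). Targets of this kind are also controlled by other pathways. With 4-PBA, Fn1 fell by 0.21 against DMSO (adjusted p = 1.83e-06) and Bhlhe40 fell by 0.22 (adjusted p = 1.02e-05), while Tagln, a smooth muscle gene, was 0.24 higher (adjusted p = 0.00769), a call lost without 4-PBA replicate 1 (adjusted p = 0.0568). Genes on the opposite strand overlap Bhlhe40, Fn1, Tagln, Ncor1, Sin3a, Thbs1 and Nedd4l in GENCODE M21, so their counts could include reads of these partners. Gm43422 overlaps Tgfbr3 on the same strand. The partners of Fn1 (Apol7d) and Bhlhe40 (0610040F04Rik) had at most 1.08 and 1.05 CPM. Pcsk7, a partner of Tagln, had 38.7 to 47.7 CPM, and Ttc19, a partner of Ncor1, had 56.8 to 70.7 CPM. The 5 proliferation markers had log2 differences of 0.18 to 0.25 between 4-PBA and DMSO, and only that of Pcna passed the test. DMSO replicate 2 was the lowest day 4 library for each of these markers. Of 8 myoblast and myotube markers, 5 had a negative difference between 4-PBA and DMSO, and Des, Mymk and Acta1 passed the test. The part of these markers in the differences of the ligands and repressors was not tested.

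**Figure D4:**
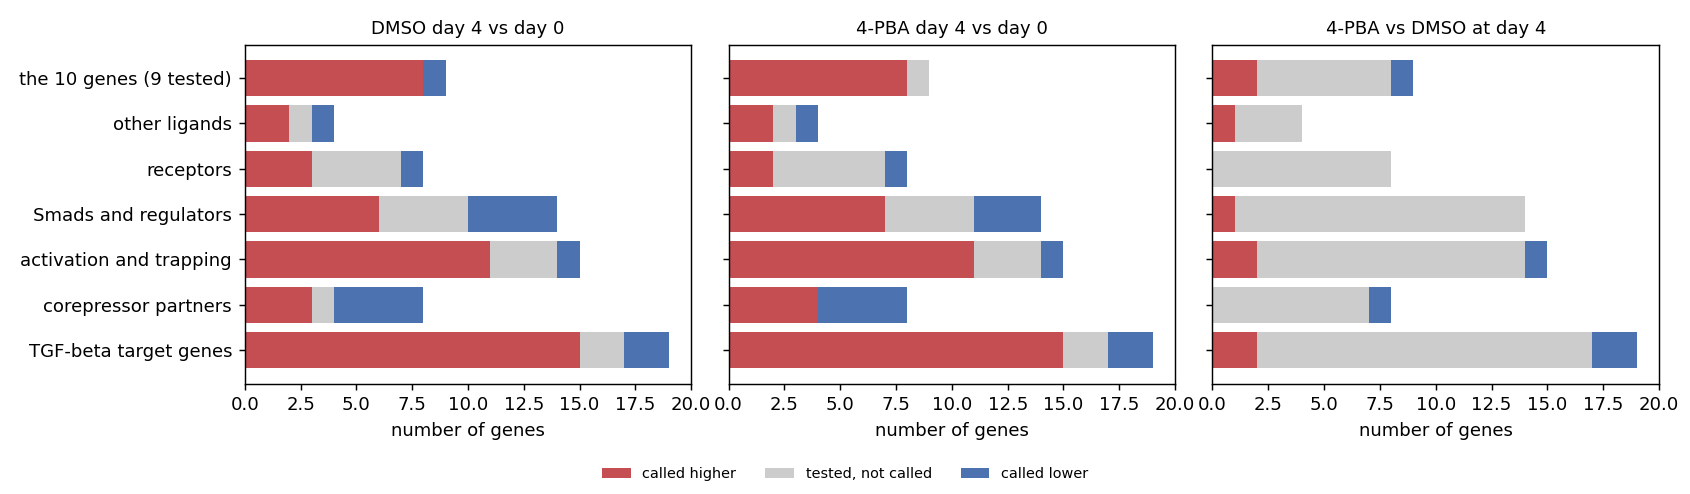
Number of genes called higher (red), called lower (blue) or tested and not called (grey) at an adjusted p under 0.05 in each gene list, for the 3 comparisons. The top bar counts Tgif2, whose difference between treatments selected it, so its call in that comparison is not a result. Most genes of the lists were called against day 0, and few were called between treatments.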

How the data were processed

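The deposited values are raw counts per gene symbol, which the authors neither normalised nor pooled, per the file headers. Total RNA was DNase treated and made into directional libraries, per the labels' protocols, and the build was GRCm39, per the submitters' processing notes. The aligner, counter, annotation and strand setting are not given in the sources used here. No column of another sample was present.

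The test was the quasi-likelihood F test of edgeR 4.0.16 (R 4.3.3, limma 3.58.1). The filter filterByExpr kept 17433 of 43074 symbols, 13014 of which had no counts. Libraries were scaled with TMM, and all 6 libraries entered a single robust fit with 1 coefficient per group. P-values were adjusted by Benjamini-Hochberg across the tested genes. The standard error (SE) is the size of the log2 fold change divided by the square root of F. Limits from 0 counts cover counting error only. The common biological coefficient of variation was 3.74%, with 3 residual degrees of freedom, so replicate spread limited precision. Lengths came from GENCODE M21, whose symbols matched 36556 symbols in all and 16469 of those tested. Named genes were the 10 members, up to 4 called genes of each of 6 lists with the smallest adjusted p with DMSO against day 0, and up to 3 between treatments. A gene that this rule names is not reported here. The members and lists were chosen with earlier results of these data known. Alternatives were DESeq2 1.42.0, limma-voom, other scalings and filters, a replicate block, fits of the 4 libraries compared, a threshold of 0.01 and leaving out each library. The length of all exons merged was added after seeing the data. The fit was tested on simulated data. Plots used matplotlib 3.10.9 under Python 3.11.15.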

Additional observations from a re-analysis of the deposited data

How the results depend on the processing

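With DMSO or 4-PBA against day 0, each tested member other than Tgif2 kept its direction and its side of the threshold in all 14 alternatives. Tgif2 kept its direction, which is a description only, because its DMSO and 4-PBA libraries entered the contrast that selected it. Between 4-PBA and DMSO, the number of genes called was 424 at an adjusted p under 0.01 and 295 to 1194 with 1 library left out (341 and 295 without 4-PBA replicate 1 and 2), against 855; without DMSO replicate 1, 634 were higher and 560 lower, against 371 and 484. At an unadjusted p under 0.05 there were 2908 genes. The number of members called, Tgif2 counted, was 1 to 3 with 1 library left out, and 1 without 4-PBA replicate 2. The number of other pathway genes called was 6 at an adjusted p under 0.01 and 4 to 15 with 1 library left out (4 and 5 without 4-PBA replicate 1 and 2), against 10. Inhba, at -0.03 between treatments, was 0.058 without DMSO replicate 1 (-0.12 to 0.058 with 1 library left out), and Ski, at 0.03, was -0.0027 without 4-PBA replicate 1 (-0.0027 to 0.054). The cause was not tested. Labels give the replicates the same numbers in each group without saying that these are shared, and same-numbered libraries did not deviate together (r = -0.0279, -0.00306 and -0.0116 across genes). With a replicate block, 768 genes and 8 other pathway genes were called between treatments. Fst was called with that block as well, and Skil had an adjusted p of 0.0627. With 2 libraries a group, the adjusted p-values rest on the spread shared across genes.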

Other observations

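The genes whose levels over the 6 libraries were most like those of each member were ranked by the root mean square difference of centred log2 CPM, among 10680 tested genes with a mean of at least 5 CPM. The nearest were Gpx1 (0.00891) and Maco1 (0.0127) for Tgfb1, Il18 (0.0314) and F11r (0.0319) for Tgfb2, and Rundc3a (0.0193) and Nckap5l (0.0199) for Tgfb3. For Inhba they were Pkd1 (0.0173) and Gnao1 (0.0296), and for Fst Ccn3 (0.0861) and Col11a1 (0.128). Among the repressors they were Leng8 (0.0127) and Map4k3 (0.0157) for Tgif1, Ier5l (0.116) and H1f10 (0.121) for Tgif2, Ppm1e (0.0136) and Klf2 (0.0171) for Ski, and Ube2l6 (0.0253) and Atp2b4 (0.0259) for Skil. Fst and Tgif2 had no gene as close as the other members had. With only 3 groups many genes share a profile, and these values describe likeness across these libraries only.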
